A study of Mus musculus with 2 samples.

Results

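Of the 1130 Bcl3 peaks called in a mouse embryonic stem cell line, 293 (25.9%, exact 95% interval 23.4 to 28.6%) lay between genes at a distance over which enhancers commonly act. They were chosen as peaks that the authors' location table marks as intergenic and whose closest listed transcription start was more than 5 kb and at most 100 kb from the peak midpoint. Of the other intergenic peaks, 89 were closer to a start and 305 were beyond 100 kb or had no listed gene. The cells were CGR8, a mouse line that grows without feeder cells and depends on leukemia inhibitory factor (LIF), grown on 0.1% gelatin with 15% serum replacement and LIF at 1000 U/ml. Both libraries, 1 made from chromatin of enzyme-digested nuclei pulled down with an antibody to Bcl3 and 1 from input, came from these cells under the same culture, without a genetic change or treatment named in the labels. The peak list belongs to the immunoprecipitated library, positions are in mouse build mm9, and the input and the read depth of both libraries were not analysed here. With 1 library there is no spread between replicates and no test between samples, and intervals cover counting error over peaks only.

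Bcl3 is an atypical IκB protein that works in the nucleus, where it reaches DNA by binding p50 or p52 dimers of the NF-κB family and can raise or lower transcription. It is induced by LIF and STAT3 signalling in mouse embryonic stem cells. Enhancers are regulatory stretches outside promoters that can act on a gene from either side and over long distances, and the nearest gene is not always the one they act on. For that reason the genes on both sides of each peak are given here, and a neighbouring gene is a position and not a shown target.

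The label of these peaks as distant from gene starts holds, by the rule that chose them, for the starts of the wider annotation, but not for all known starts. No listed transcript of the wider annotation spanned the midpoint of a member, which the intergenic mark used to choose them would give by itself. The wider annotation holds only coding transcripts, whereas the authors' closest-transcript table also holds noncoding ones. It has an entry for 80 members, and 12 of the 293 (4.10%, 2.13 to 7.04%) had that transcript's start within 5 kb, 6 of coding and 6 of noncoding transcripts. For members without an entry, the distance to noncoding starts was not measured. These 12 were noticed after the values were seen. They include the peak with the second-greatest fold enrichment, 530 bp from the start of C330046G13Rik (Platr7), a pluripotency-associated long noncoding RNA. Scarna2, a small Cajal body RNA, had its start 407 bp away, and Snhg1, a small nucleolar RNA host gene, 3899 bp away. Among coding genes, the starts of Zfp609, Vps13b and Msl2 lay 180, 363 and 651 bp from a peak midpoint.

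The Lifr peak, also among these 12, is shown with sequence because Lifr encodes the receptor through which LIF keeps these cells undifferentiated. The peak lay on chromosome 15 at 7079200 to 7079399 (mm9), 11.2 kb from the Lifr start of the wider annotation but 172 to 371 bp upstream of the start in the closest-transcript table. RefSeq lists 2 Lifr starts in GRCm38.p6, 10.97 kb apart, the same spacing as between the starts of the authors' tables. The 250 bases before the first of these starts, chr15:7129322-7129571 on the plus strand of GRCm38.p6, are printed below. The 79 bases in capitals are those that the peak covers if both builds have the same start. The rest of the peak, with its summit at 7079267 (mm9), then lies before the printed bases. That part was not searched for the motif given below.
Lifr upstream start: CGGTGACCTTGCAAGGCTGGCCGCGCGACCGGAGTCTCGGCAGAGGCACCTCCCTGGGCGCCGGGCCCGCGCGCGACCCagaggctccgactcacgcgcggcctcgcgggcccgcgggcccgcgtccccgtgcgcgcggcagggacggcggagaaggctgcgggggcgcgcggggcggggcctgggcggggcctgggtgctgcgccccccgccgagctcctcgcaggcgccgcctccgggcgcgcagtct
A run of 3 G, 5 bases of any kind and 2 C, a loose form of the κB motif bound by NF-κB dimers, occurred 2 times on the strand shown and 1 time on the other strand, where the match lay in the capitals. On either strand this run is in 45.8% of the 32851 RefSeq windows of the same length, so a match is common. The Lifr peak was of middling strength, with a log2 fold enrichment of 2.97 at a false discovery rate of 0.296.

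In strength the members resembled the whole list. Their log2 fold enrichment, the authors' greatest value within each peak, ran from 2.48 to 3.87 with a median of 2.91 (95% interval 2.85 to 2.95), which is 7.50-fold. The median was 2.93 over all 1130 peaks, 2.95 within 5 kb of a start, 2.93 in intergenic sequence beyond 100 kb and 2.93 in introns over 5 kb from a start. Peak length had a median of 200 bp (100 to 675 bp). The lowest false discovery rate of the list, 0.179, was held by 55 members (18.8%, 14.5 to 23.7%), beside 21.1% of all peaks and 30.0% (24.3 to 36.1%) of those within 5 kb of a start. The members were close to the intergenic peaks beyond 100 kb (18.0%) and the intronic peaks over 5 kb from a start (19.3%). Over the whole list the rate never fell as the fold enrichment fell, and the 238 peaks at the lowest rate were those with a log2 value of 3.30 or more. The rate is therefore no measure apart from the fold. The median rate of the members was 0.324 and the highest 0.619. A rate of 0.179 is the authors' estimate that about that share of such peaks are false calls, so any single peak named here is uncertain.

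**Figure D1:**
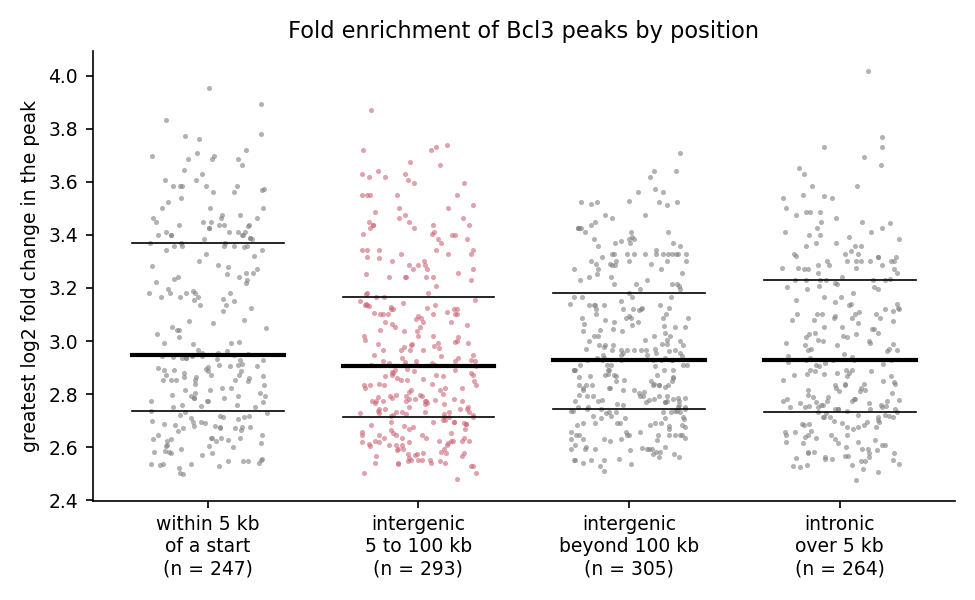
Greatest log2 fold change per peak (vertical axis) in 4 position classes, 1 point a peak, with the median as a thick line and the quartiles as thin lines. The members, in red, have a median of 2.91 and overlap the other classes over nearly the whole range.

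The strongest member lay on chromosome 7 at 146549800 to 146550449, 24.9 kb upstream of Inpp5a, an inositol polyphosphate 5-phosphatase, with a log2 fold enrichment of 3.87. On its other side, Pwwp2b, a chromatin protein with a PWWP domain, ended 97.0 kb away. The next, at 3.74, lay between the divergent genes Ckap4, an endoplasmic reticulum membrane protein whose start was 19980 bp away, and Tcp11l2 at 23.1 kb. The third (3.73) lay 1.15 kb past the end of Pxylp1, a xylose phosphatase of proteoglycan synthesis, with the start of Zbtb38, a zinc finger protein that binds methylated DNA, 90.5 kb away. A peak at 3.72 lay 17.3 kb past the end of Prr14, a protein that ties heterochromatin to the nuclear lamina, with Phkg2 79.3 kb away on the other side. In the closest-transcript table this peak had a nearer coding start, that of Fbrs at 8878 bp. Another peak at 3.72 lay 59.7 kb upstream of 4931417E11Rik with no listed gene on its other side.

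The other members of the 10 were as follows. Nrf1, a factor that drives nuclear genes for mitochondrial function, had its start 65.5 kb from a peak at 3.64 whose other neighbour was Strip2. That peak also lay 2816 bp from the start of the noncoding transcript 1700023L04Rik. Tfap2c, the AP-2γ factor of trophectoderm and germ cells, ended 10.6 kb from a peak at 3.63 on chromosome 2 (172394450 to 172394899), with Bmp7, a BMP ligand, 300.5 kb away on the other side. Cartpt, a neuropeptide precursor gene, ended 10.6 kb from another peak at 3.63, and the microtubule protein gene Map1b started 371.3 kb away. The other 2 of the 10 lay between Mreg and Pecr (3.67) and between Glt28d2 and the protease gene Prss48 (3.66).

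The Poisson score, the authors' −log10 of the smallest Poisson p in a peak, put other members first. It exceeded 10 in 10 members (3.41%, 1.65 to 6.19%), beside 2.57% of all peaks. The highest, 21.9, was 15.0 kb upstream of Eapp, which encodes a phosphoprotein that binds E2F factors, with Snx6, a sorting nexin, on the other side. The peak with 18.2 lay 38.4 kb upstream of Cbx7, a Polycomb chromodomain protein, and 24.8 kb past the end of Pdgfb, a growth factor gene. The peaks upstream of Tdpoz5 (14.6) and within reach of Mdga1 (12.9) lay near the outer limit, at 98.9 and 97.3 kb from a start of the wider annotation. In the closest-transcript table the Tdpoz5 peak had a nearer coding start, that of Gm10696 at 6690 bp. The fifth (12.1) lay between Amd1, the decarboxylase of polyamine synthesis, at 19.2 kb and Cdk19, a kinase of the Mediator complex, at 27.9 kb. The log2 fold enrichments of these 5 were far from the top, from 2.72 for the Amd1 peak to 3.21 for the Mdga1 peak.

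**Figure D2:**
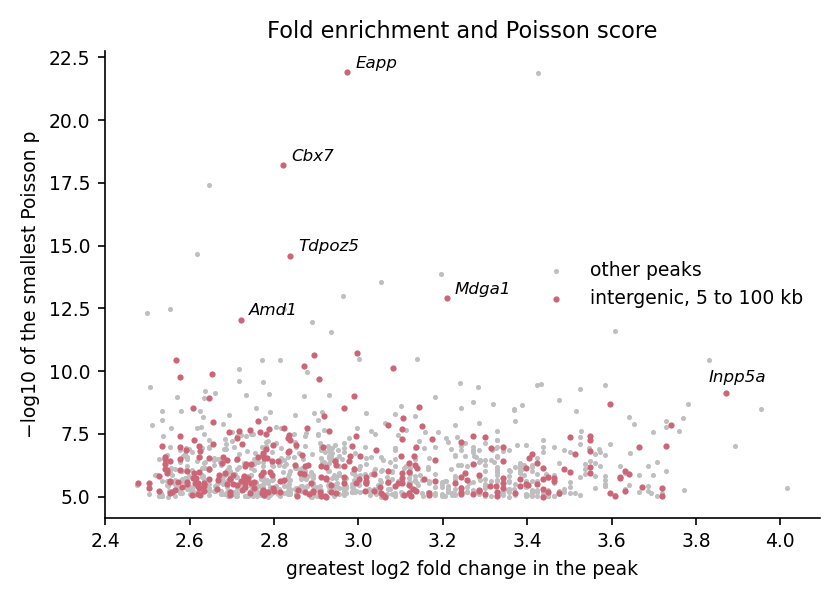
Greatest log2 fold change (horizontal axis) against −log10 of the smallest Poisson p (vertical axis), 1 point a peak, members in red and other peaks in grey; 1 peak outside the members, at the score's ceiling of 100, is not drawn. The named members of high score, such as Eapp at 21.9, are not those of high fold, such as Inpp5a at 3.87.

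Per kilobase, members were most frequent near the inner limit. No background of intergenic positions was computed, so a preference of the peaks for sites near genes was not tested. The median distance to the closest start was 25.6 kb (22.2 to 30.4 kb), with 41 members at 5 to 10 kb, 76 at 10 to 20 kb, 100 at 20 to 50 kb and 76 at 50 to 100 kb. The median log2 fold enrichment in these bands was 2.89, 2.92, 2.91 and 2.88, with no ordering by distance. Just inside the limit of 5 kb lay the peaks of Cst11 (5017 bp), Zbtb34 (5119 bp) and Olfr670 (5169 bp), with log2 fold enrichments of 2.98, 2.71 and 3.23. Just outside it were those of Morn3 (4946 bp), Cyrib (4878 bp) and Mecom (4866 bp), with 2.53, 3.50 and 3.33. At the outer limit the last peaks inside were those of Mdga1, Tmtc2 and Tdpoz5, with log2 fold enrichments of 3.21, 2.81 and 2.84. The first outside were those of Phldb2 (100.2 kb), Csf3r (100.9 kb) and Sox4 (101.1 kb), with 2.61, 2.59 and 3.00.

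More members lay upstream than downstream of the closest start, 198 against 95, a share upstream of 67.6% (61.9 to 72.9%) beside 44.7% of all peaks with a listed gene. The side is not independent of how the members were chosen, because positions just downstream of a start lie inside the gene and so are not intergenic. The share was 75.6% at 5 to 10 kb (59.7 to 87.6%) and 63.2% at 50 to 100 kb (51.3 to 73.9%). Upstream and downstream members were alike in fold enrichment (medians 2.90 and 2.91) and in distance (25.5 and 25.7 kb).

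**Figure D3:**
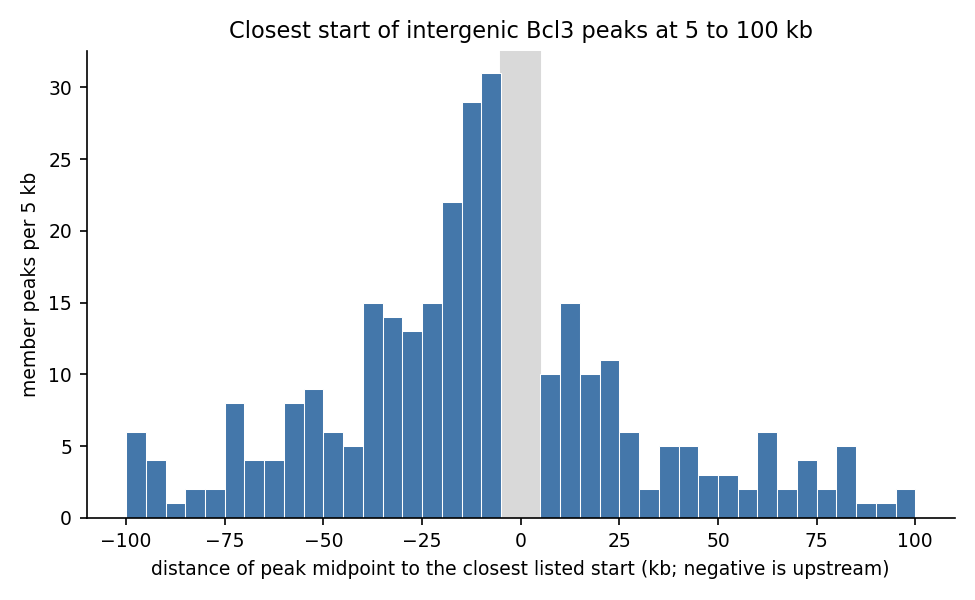
Number of members (vertical axis) per 5 kb of signed distance between peak midpoint and closest listed start (horizontal axis), negative upstream; the grey band was left out by definition. The left side holds 198 peaks and the right side 95.

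Genes were listed on both sides of 278 members, and the median gap between the flanking genes was 102.0 kb (79.2 to 118.2 kb). The flanking genes pointed the same way at 153 members (55.0%), away from each other at 90 (32.4%, 26.9 to 38.2%) and toward each other at 35 (12.6%, 8.93 to 17.1%). Over all 903 peaks with listed genes on both sides, these shares were 52.0%, 28.9% and 19.0%. Since a start within 100 kb was required, gaps with an end on both sides were less likely to qualify. Around intergenic peaks farther than 100 kb from a start, the arrangement was convergent at 44 of 157. Starts lay within 100 kb on both sides of 145 members (49.5%), while 117 (39.9%) had only 1 gene start in reach and 51 (17.4%) had 5 or more.

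The gaps differed widely in size. The narrowest, 1.85 kb, was between the ends of the major histocompatibility complex genes Bag6, a chaperone, and Prrc2a, and its peak had a log2 fold enrichment of 2.78. Slc36a3 and Slc36a2, both amino acid transporters, were 6.79 kb apart around a peak at 2.73, and the agouti gene and Ahcy, the enzyme that clears S-adenosylhomocysteine, 8.30 kb apart around one at 2.61. Gtf2f1, a subunit of the general factor TFIIF, and Khsrp, an RNA-binding protein, were 9.76 kb apart (3.13), and Ttk, a mitotic checkpoint kinase, and EG546150 9.82 kb (2.76). The widest gap, 983.4 kb, ran from Mtpn to the muscarinic receptor gene Chrm2, with the peak 30.7 kb upstream of Mtpn (2.92). In the other wide gaps, too, the peak sat near 1 end, as the distance limit requires, 13.1 kb upstream of Pik3r1 (a PI3-kinase regulatory subunit), 20.3 kb upstream of Tshz3 (a zinc finger factor), 12.9 kb upstream of Slitrk5 (a neuronal membrane protein) and 42.5 kb upstream of Pccb (a mitochondrial carboxylase subunit). These widths are those of the wider annotation. The Pccb peak is the one named above for its 651 bp to the Msl2 start, and GRCm38.p6 places Msl2 and Ppp2r3a in the Pccb gap and Zfp507 in the Tshz3 gap.

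In 18 members starts lay within 20 kb on both sides. The strongest of these, at 3.60 on chromosome 3 (95478625 to 95479024), lay between Mcl1, an anti-apoptotic Bcl-2 family gene whose end was 11.7 kb away, and Adamtsl4, whose end was 1.30 kb away. A peak at 3.31 lay between the divergent genes Slc3a2, an amino acid transporter chain, and Wdr74, a ribosome assembly factor, and is the peak named above for Snhg1. Among the rest, the next in strength lay between Olfr670 and Olfr671 (3.23), between the placental prolactin family genes Prl3d2 and Prl3d3 (3.17), and in the gap of Gtf2f1 and Khsrp.

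Genes of the pluripotency network flanked members of varied strength. The members flanked 529 of 21900 protein-coding genes (2.42%), and 277 of the 21900 (1.26%) held the closest start of a member. They flanked 4 of 20 genes on the naive pluripotency list and 3 of 20 on the core list. Counted by closest start only, these were 4 of 20 and 1 of 20. The Klf2 peak, on chromosome 8 at 74848275 to 74848474, was the strongest of these at 3.40 and had the lowest false discovery rate. It lay 3.13 kb past the end of Klf2, a Krüppel-like factor of the naive state, and 16.5 kb past the end of Eps15l1 on the other side. The Fgf4 peak (3.08, rate 0.251) lay on chromosome 7 at 152053450 to 152053674, 2.42 kb past the end of Fgf4, the growth factor that primes these cells for differentiation, and 28.9 kb upstream of Fgf15. Its Poisson score of 10.1 was among the 10 above that mark.

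The other pluripotency neighbours had weaker peaks. A peak at 2.61 (rate 0.529) lay on chromosome 6 at 122613000 to 122613124 in the 77.3 kb between Dppa3, a maternal-effect gene also called Stella, and Nanog, a core pluripotency factor. It was 32.8 kb past the end of Dppa3 and 44.5 kb upstream of Nanog, in a region known to hold enhancers active in embryonic stem cells. The peak upstream of Tet2 (2.73, rate 0.429), which oxidises methylcytosine, was 35.3 kb from its start, and Cxxc4 was 660.0 kb away on the other side. The Prdm14 peak (2.54, rate 0.592) lay 9.33 kb past the end of this repressor of differentiation genes, and the Sall4 peak (2.62, rate 0.529) 110.6 kb from the Sall4 start, with Zfp64 closer.

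Members beside genes of the signalling lists ran from 2.62 (Bmp2) to 3.63 (Bmp7). Of the FGF and MAPK list 4 of 32 genes flanked a member, namely Fgf4, Fgf15, Fgf5 and Fgfr1. The receptor gene Fgfr1 had a peak 5.41 kb upstream (3.48) and a second in the same 317.3 kb gap (3.44), which was closer to the start of Tacc1 at 55.2 kb, and both had the lowest rate. Fgf5, a marker of the primed state, lay 60.4 kb from a peak at 3.27 that was 6.31 kb past the end of Prdm8. Of the LIF and STAT3 list 3 of 24 genes did, Lifr, Osmr (the oncostatin M receptor, 255.0 kb across the gap from Lifr) and Socs3. Lifr and Osmr flanked the same peak, the one described above as 172 to 371 bp upstream of another Lifr start. By closest start only, the list had 2 of 24 genes. Socs3, the feedback inhibitor of LIF signalling, and Pgs1, a cardiolipin synthesis enzyme, started 5.87 and 11.8 kb to either side of a peak at 2.67 (rate 0.485). Among TGF-β and BMP genes, 2 of 32 did, Bmp7 as given above and Bmp2, which started 533.1 kb from a peak at 2.62 with Fermt1 closer.

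**Figure D4:**
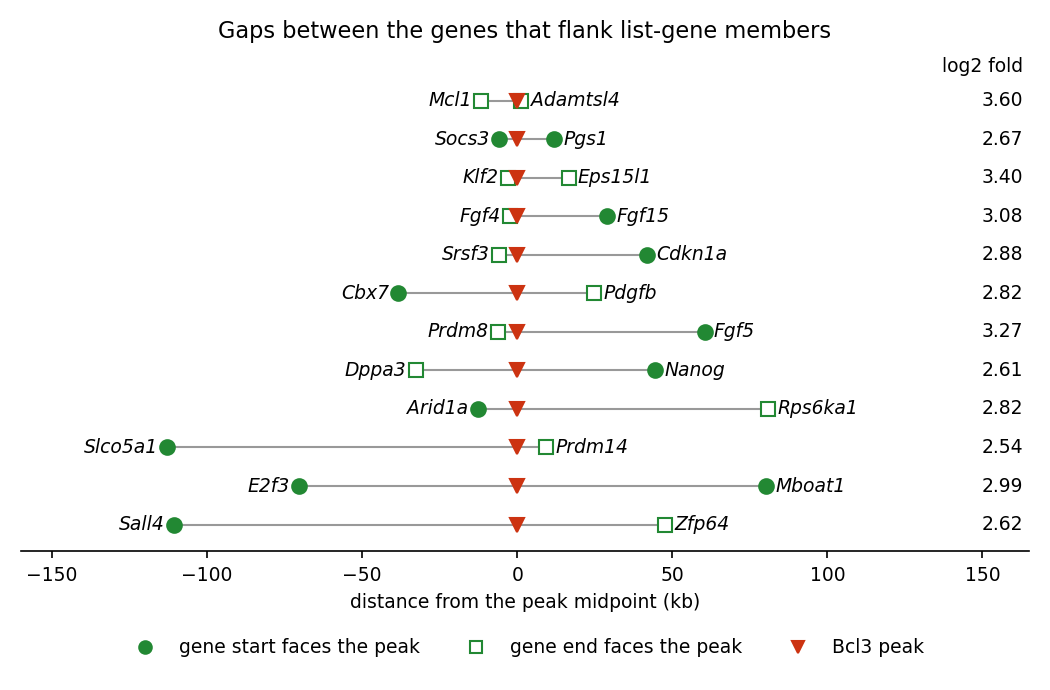
Gaps around the members that flank a list gene, for the 12 with both neighbours within 120 kb; the horizontal axis is the distance from the peak midpoint in kb, filled circles are gene starts and open squares gene ends. The peaks of Klf2 and Fgf4 sit near the ends of these genes, and that of Mcl1 nearer to the Adamtsl4 end than to the Mcl1 end. That of Socs3 sits between 2 starts, and that of Nanog within a gap of 77.3 kb.

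Among regulators of growth, 4 of 37 genes of the cell cycle and apoptosis list flanked a member, Mcl1, Pmaip1, Cdkn1a and E2f3. Pmaip1, the pro-apoptotic gene also called Noxa, ended 1.45 kb from a peak at 2.69. Cdkn1a, which encodes the cell cycle inhibitor p21, started 41.8 kb from a peak at 2.88 that was 5.78 kb past the end of the splicing factor gene Srsf3. E2f3, an S-phase factor, started 70.3 kb from a peak at 2.99. Of the Polycomb and chromatin list 2 of 35 did, Cbx7 and Arid1a, a subunit of BAF remodellers that started 12.7 kb from a peak at 2.82.

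Of the lineage lists, the endoderm list had 2 of 24, Foxa2, a forkhead factor whose end was 1.75 kb from a peak at 2.72, and Lamb1, a laminin chain 143.0 kb from a peak at 2.74. Otx2, a head and forebrain factor that also acts in primed cells, ended 18.9 kb from a peak at 2.75 and was 1 of 25 genes on the neural list. Tfap2c was 1 of 19 on the trophectoderm list. No gene of the NF-κB pathway list (0 of 31, exact upper bound 11.2%), the NF-κB target list (0 of 25, 13.7%), the WNT list (0 of 32, 10.9%), the mesoderm list (0 of 25, 13.7%) or the fibroblast list (0 of 20, 16.8%) flanked a member. All these bounds lie above the 2.42% of all protein-coding genes that flanked a member, so in lists this short a count of 0 is no shown absence. Over all 15 lists 25 of 393 distinct genes (6.36%, 4.16 to 9.25%) flanked a member. Of these 25, 5 did so at the lowest false discovery rate, Klf2, Fgfr1, Tfap2c, Bmp7 and Mcl1. That rate was held by 18.8% of all members and 21.1% of all peaks, so it does not set the list genes apart. The interval counts genes as independent, although some share a peak, as Tfap2c and Bmp7 do. The lists were written for stem cells and chosen with earlier results of these data known. They are no random sample of coding genes, so this share is a description.

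Of 266 distinct gaps, 10 held more than 1 member. The 3 peaks between Mreg, the melanosome protein melanoregulin, and Pecr, a peroxisomal enoyl-CoA reductase, on chromosome 1 were all strong, at 3.44, 3.46 and 3.67, and all had the lowest false discovery rate. They lay 14.3, 16.3 and 42.9 kb upstream of the Mreg start, the first pair 2.05 kb apart. The peak at 3.67, farthest from Mreg, lay 3.93 kb past the end of Pecr, and its closest start was that of Pecr at 29.1 kb. The 3 peaks between Lao1, an L-amino acid oxidase, and Slc2a1, the glucose transporter GLUT1, on chromosome 4 were spread over 84.6 kb of a 139.9 kb gap and were weaker, at 2.94, 3.02 and 2.59. In the 311.4 kb gap between the proneural gene Atoh1 and Smarcad1, a chromatin remodeller, 2 members (3.50 and 3.14) lay 11.3 and 30.4 kb upstream of the Smarcad1 start.

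**Figure D5:**
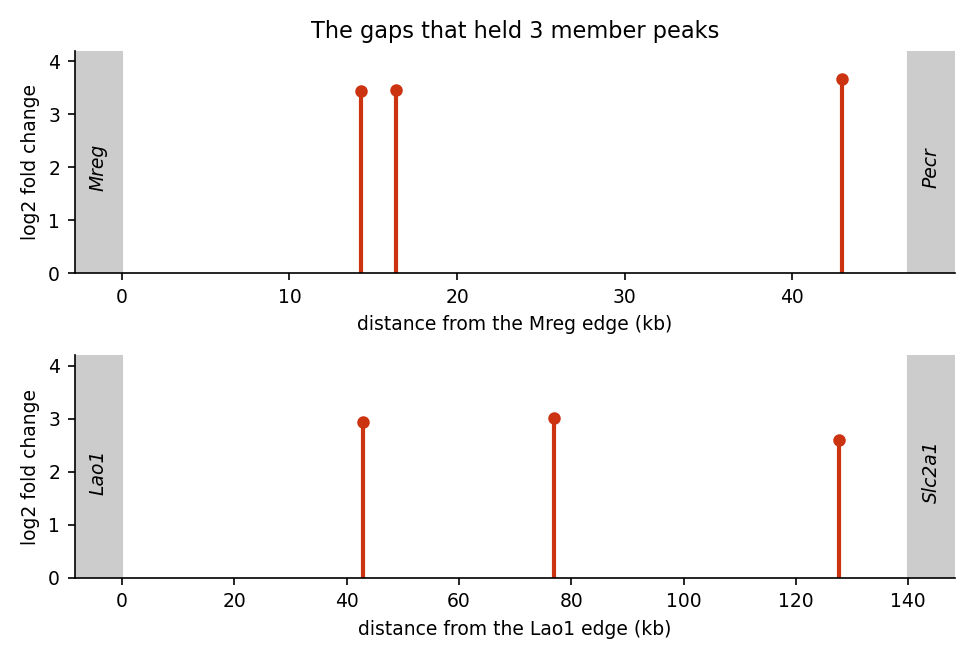
Position of each peak as distance in kb from the edge of the left-hand gene (horizontal axis) and its log2 fold change (vertical axis) in the gaps of Mreg and Pecr (top) and of Lao1 and Slc2a1 (bottom), with the neighbouring genes in grey. The peaks between Mreg and Pecr reach 3.44 to 3.67 and those between Lao1 and Slc2a1 2.59 to 3.02.

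A newer annotation places further genes in these gaps. In GRCm38.p6 the order of the flanking genes was kept for 269 members, and 65 of these (24.2%, 19.2 to 29.7%) had no further gene between them. A long noncoding RNA gene lay between the flanking genes of 131 members (48.7%) and a coding gene in 42 (15.6%, 11.5 to 20.5%). Fbrs, Srcap and Tmem265 lie between Prr14 and Phkg2, the gap of 1 of the strongest members. Whether a given peak falls inside such a gene was not tested in GRCm38.p6, since positions of the 2 builds were not converted. In the closest-transcript table (mm9), none of the 80 members with an entry had its midpoint inside the transcript given there.

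MicroRNA genes lay in 5 gaps, 8 genes in all. A single gap, between Vmn2r90 and Has1 (the hyaluronan synthase gene) on chromosome 17, held the cluster of Mir99b, Mirlet7e and Mir125a. Its peak was weak (log2 fold enrichment 2.55, rate 0.592) and lay 5.67 kb past the end of Vmn2r90. The mature 5′ arms of this cluster, from RefSeq (GRCm38.p6), are shown because it is the only cluster of that size in any of these gaps, with the seed (bases 2 to 8) in capitals.
mmu-miR-99b-5p: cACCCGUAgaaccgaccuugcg
mmu-let-7e-5p: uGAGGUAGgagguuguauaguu
mmu-miR-125a-5p: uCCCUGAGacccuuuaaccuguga
The 3 seeds differ from each other. The let-7 family is known for promoting differentiation, and the miR-125 family descends from lin-4, a developmental timing gene of the nematode.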

How the data were processed

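Per the submitters' processing notes, positions are in mm9. Aligner, peak caller and any use of the input when calling: not given in the sources used here. The authors deposited, per the file headers, 1 false discovery rate a peak (a q-value), the greatest log2 fold change, with no denominator named, the −log10 of the smallest Poisson p, and a maxT score, which was not used. Their annotation lists up to 10 coding genes to each side of a peak, within about 1000 kb.

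Members were found by the intergenic mark and the smallest distance to a listed start. A flanking gene is the listed gene whose transcript edge is nearest to the peak midpoint on that side. Symbols are current RefSeq symbols, matched for 14536 of 14602 entries. Shares have exact Clopper-Pearson 95% intervals and medians order-statistic intervals (Python 3.11.15, SciPy 1.17.1). The member finding was tested on simulated data. No test was run over peaks, because peaks of 1 library are not replicates.

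Members, lists and the naming rule were chosen with earlier results of these data known. The rule took the 10 greatest folds, the 5 greatest scores, 3 peaks to each side of both limits, up to 4 members per list, the 5 genes flanking the most members, 5 with starts on both sides within 20 kb, and the 5 narrowest and 5 widest gaps. Sequences of the peaks were not analysed here, apart from the 79 bases that the Lifr peak covers if both builds have the same start. A member that the naming rule covers is not reported here.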

Additional observations from a re-analysis of the deposited data

How the results depend on the processing

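Of 90 values recomputed under 10 alternatives, 76 stayed within the interval of the reported value, or within 1.5 times of a count, and 14 did not. Taking only peaks at the lowest false discovery rate left 55 members with a median log2 fold enrichment of 3.45, and 5 list genes. Of these 55, 61.8% (47.7 to 74.6%) lay upstream and 56.4% (42.3 to 69.7%) had starts on both sides within 100 kb. Both intervals hold the shares over all members, 67.6% and 49.5%. Keeping peaks above the median fold enrichment of all peaks left 134 members, with a median of 3.24, 41.0% at the lowest rate and 11 list genes. Keeping those above the median Poisson score left 152 members and 11 list genes. These counts and medians shift by construction, since fewer or stronger peaks are kept. An upper limit of 50 kb narrowed the median gap to 73.4 kb and raised the share with starts on both sides to 60.8%. Counting only the closest start left 15 list genes. Leaving out the 12 members near a start of the closest-transcript table, an alternative chosen after the data were seen, changed none of the values beyond those bounds, nor did a lower limit of 10 kb, distances from the summit, merging peaks within 1000 bp or protein-coding genes only. The share at the lowest rate is fixed when only those peaks are kept, and was not recomputed there. No paired analysis was possible because there is 1 library per group. The read depth is unknown.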
